A study of Caenorhabditis elegans with 3 samples.

Results

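The nuclear genes for the mitochondrial respiratory chain and the mitochondrial ribosome were examined for binding of DRAP-1 in Caenorhabditis elegans embryos. Genes were taken from the Ensembl gene models of WBcel235 by a rule on their names that uses no binding value. The rule was chosen with earlier results of these data known. The names were nuo-, cox-, atp-, asb-, asg-, ucr-, sdha-, sdhb-, mrpl- and mrps- followed by a number, plus cyc-1 and isp-1, in protein-coding genes on the nuclear chromosomes. This gave 110 of 19973 protein-coding genes. They comprised 6 genes of complex I, 3 of complex II, 7 of complex III, 15 of complex IV, 9 of complex V (40 chain genes together), 41 of the large ribosomal subunit and 29 of the small one (70 ribosome genes together). Of the 15 complex IV genes, 8 encode assembly factors (cox-10, cox-11, cox-14, cox-15, cox-16, cox-17, cox-18 and cox-19) and not subunits. Genes were placed by name. The RefSeq product name of mrps-18C (large subunit protein uL3m) points to the other subunit. That of mrpl-48 names only a domain of the small subunit protein uS10, which does not by itself place the protein there. Neither gene was bound.

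The worms were of strain OP700. It carries the transgene wgIs700, in which drap-1 bears TY1, EGFP and 3xFLAG tags, together with an unc-119(+) rescue marker in an unc-119 (tm4063) background. All samples share this genotype, and no untagged or other comparison group was analysed here. Whole embryos of mixed stage and pooled sex, obtained by bleaching and given an age of 3 hours in the labels, were used, so all cell types are averaged. Binding was measured by chromatin immunoprecipitation and sequencing (ChIP-seq). The sample descriptions name an antibody to GFP, whereas the antibody label names drap-1. The 3 samples are biological replicates of 1 group, numbered 2, 3 and 4.

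DRAP-1 belongs to the family of the alpha subunit of negative cofactor 2, a complex that binds the TATA-binding protein on promoter DNA and was first described as a repressor of transcription in human cells. The respiratory chain passes electrons from NADH and succinate to oxygen through complexes I to IV, and complex V uses the resulting proton gradient to make ATP. Most chain subunits and all proteins of the mitochondrial ribosome are encoded in the nucleus, while a few chain subunits are made inside the mitochondrion by that ribosome. Many worm genes are transcribed together from 1 upstream promoter as operons, so that a downstream gene need not have a promoter at its own 5′ end.

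The data were lists of regions with a summit and a signal value, with no counts of reads. The sequencing depth is therefore unknown. The 3 replicate lists and the list from pooled reads held 30000 regions each, peaks and background together. The final list held the 1468 peaks that passed the authors' threshold of the irreproducible discovery rate (IDR), a measure of how well ranks repeat between replicates. They coincided with the top 1468 regions by signal in the pooled list and had signal values of 126.7 to 2257. The signal is the authors' own value on a scale that is not stated and served here only for ranks inside each list. The pooled and IDR lists contain the reads of the replicates and are not independent of them. A gene was called bound when an IDR summit lay within 500 bp of its 5′ end. No region of any list lay on the mitochondrial chromosome, and none lay within 500 bp of the 5′ end of drap-1 itself.

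The sequences at the summits of 5 bound members are shown first, because their windows touch no annotated exon and they cover both the chain and the ribosome. Each line gives 101 bases of the RefSeq sequence of WBcel235 (ce11) centred on the IDR summit, 5′ to 3′ on the strand of the named gene. Capitals mark matches to the letter strings described below. The windows are chrIII:12905169-12905269 for cox-5A (plus strand, GAGAGA on the other strand), chrIII:5228152-5228252 for atp-2 (plus, GGGCGG), chrV:1821393-1821493 for mrpl-39 (plus, GGGCGG on the other strand), chrIV:14767820-14767920 for mrps-7 (minus, no match) and chrIII:1202334-1202434 for mrpl-45 (minus, a run of TTTTTTTT on the other strand).
cox-5A: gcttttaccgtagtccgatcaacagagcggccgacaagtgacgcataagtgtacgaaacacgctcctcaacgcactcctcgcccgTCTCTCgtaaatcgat
atp-2: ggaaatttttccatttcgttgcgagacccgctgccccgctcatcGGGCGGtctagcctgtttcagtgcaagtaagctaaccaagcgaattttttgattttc
mrpl-39: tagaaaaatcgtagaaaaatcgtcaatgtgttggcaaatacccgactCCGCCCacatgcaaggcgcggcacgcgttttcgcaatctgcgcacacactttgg
mrps-7: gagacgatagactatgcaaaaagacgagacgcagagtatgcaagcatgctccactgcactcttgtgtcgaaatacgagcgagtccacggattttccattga
mrpl-45: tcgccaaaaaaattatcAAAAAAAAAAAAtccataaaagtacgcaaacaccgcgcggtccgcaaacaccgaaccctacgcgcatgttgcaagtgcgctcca

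The first comparison asked which of these genes carry a DRAP-1 peak. An IDR summit lay at 14 of the 110 members (12.7%, exact 95% interval 7.14 to 20.4), beside 3.75% of all protein-coding genes. The 14 summits were distinct, with 1 member each. The chain genes held 10 of them among 40 genes (25%, 12.7 to 41.2) and the ribosome genes 4 among 70 (5.71%, 1.58 to 14). The chain share thus stood well above the background share, while the background lay inside the interval of the ribosome share. Among the members, every complex of the chain had at least 1 bound gene. These were 2 of 6 in complex I, 1 of 3 in complex II and 2 of 7 in complex III. Complex IV had 3 of 15 and complex V 2 of 9. All 3 in complex IV were among its 7 subunits (42.9%, 9.9 to 81.6). None of its 8 assembly factors with cox- names had an IDR summit (0.0%, interval up to 36.9). The intervals of subunits and assembly factors overlap, so no difference between them can be read. The intervals of the 5 complexes overlap widely, so no order among them can be read. These counts leave out chain subunit and assembly genes with other names, of which 3 of 26 were bound (11.5%), as given further below. Those bound include the assembly gene sco-1 (rank 604). In the ribosome, 2 of 41 large-subunit genes and 2 of 29 small-subunit genes were bound. These intervals cover the counting of genes only. Keeping only IDR summits within 100 bp of a summit among the 1468 highest regions of the other replicates left 8 members without replicate 2 (7 chain genes and 1 ribosome gene), 4 without replicate 3 (4 and 0) and 6 without replicate 4 (5 and 1). The shares of all protein-coding genes under the same filter were 2.16%, 2.05% and 2.05%, beside 7.27%, 3.64% and 5.45% of members.

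**Figure D1:**
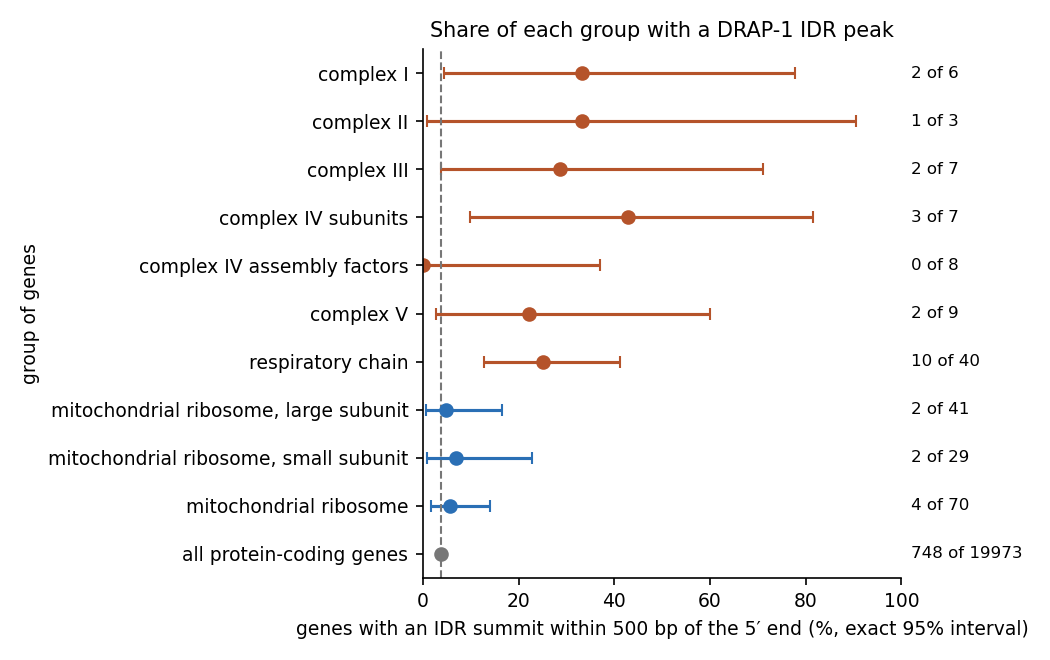
Percentage of each group of genes with an IDR summit within 500 bp of the 5′ end (horizontal axis), with exact 95% intervals as bars and the number of bound genes at the right. The dashed line marks the 3.75% of all protein-coding genes; the chain as a whole (10 of 40) lies to its right, and the ribosome (4 of 70) has an interval that spans it.

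In the replicate lists the chain again had the highest share, while ribosome genes and all coding genes had no fixed order. Taking the 1468 highest-signal regions of each, 8 members (7.27%) were reached in replicate 2, 13 (11.8%) in replicate 3 and 11 (10%) in replicate 4. The shares of all protein-coding genes were 3.41%, 3.39% and 3.48%. Chain genes were reached in 17.5%, 25% and 20% of cases in replicates 2, 3 and 4, a mean of 20.8% ± 3.82 (SD, n = 3). Ribosome genes were reached in 1.43%, 4.29% and 4.29%, a mean of 3.33% ± 1.65, and the other protein-coding genes in 3.39% ± 0.0478 (SD, n = 3 each). The chain share was thus above both in every replicate, and the ribosome share was close to that of the other genes. The mean difference between chain and ribosome was 17.5 percentage points ± 2.79 (SD over 3 replicates), with the chain higher in 3 of 3. An exact paired permutation test over the 3 replicates gave a two-sided p of 0.25, the smallest that 3 pairs allow. The test therefore cannot pass 0.05 here. For ribosome genes against other genes the difference was -0.0616 points ± 1.65, with the exact paired permutation p at 1.0.

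Weaker regions extended the difference in part. A pooled region of any strength lay within 500 bp of 64 of the 110 members (58.2%), beside 31.3% of all protein-coding genes. It was present at 26 of 40 chain genes (65.0%) and 38 of 70 ribosome genes (54.3%). The median pooled rank of these strongest regions was 1943.5 for the chain genes that had one, 8307 for the ribosome genes and 11289 for all protein-coding genes. Chain and ribosome genes thus differed less in having a region than in how high it ranked. Within the 5000 highest pooled regions, 42.5% of chain genes, 20% of ribosome genes and 9.25% of all coding genes were reached. In 26 of the 110 members, 8 of the chain and 18 of the ribosome, no list had any region in the window. The same held for 9136 of all 19973 protein-coding genes, a larger share.

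**Figure D2:**
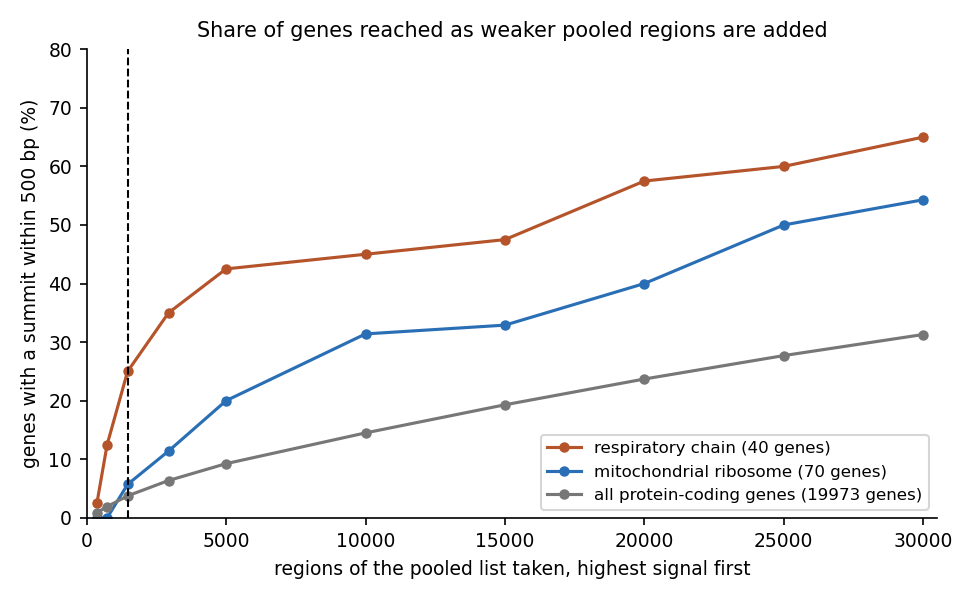
Percentage of genes with a summit within 500 bp of the 5′ end (vertical axis) as more regions of the pooled list are taken in order of signal (horizontal axis), for chain genes, ribosome genes and all protein-coding genes. The dashed line is the length of the IDR list, 1468 regions, where the 3 shares are 25%, 5.71% and 3.75%; at all 30000 regions they are 65.0%, 54.3% and 31.3%.

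Complex IV, cytochrome c oxidase, hands the electrons to oxygen, and its subunit genes cox-5B and cox-5A held the highest peaks of all members. cox-5B, on chromosome I, ranked 157, 204 and 124 in replicates 2, 3 and 4 and 152 in the pooled list, with a pooled signal of 379.3 and its summit at −26 bp. cox-5A ranked 534, 480 and 317, with a pooled rank of 388, a signal of 236.1 and its summit at −272 bp, within the first of the sequences above. Both genes were therefore among the 1468 highest regions in every replicate, and neither summit had another gene's 5′ end within 500 bp. cox-6C ranked 497, 5333 and 1027 (pooled rank 954, signal 154.8). It was among the 1468 highest regions in replicates 2 and 4 only, and the summit at −428 bp lay in an exon of the noncoding RNA gene F29C4.9, 40 bp inside that gene. Of the complex IV members without an IDR summit, the assembly factor genes cox-14 (pooled rank 3959) and cox-10 (4966) came highest. The unbound subunit genes with a pooled region, cox-4 (12031) and cox-6A (23431), ranked lower. No pooled region lay at 6 of the 15, beside 13726 of all 19973 protein-coding genes, a larger share. These were 2 of the 7 subunit genes and 4 of the 8 assembly factors, among the latter cox-11 and cox-16.

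Complex I takes electrons from NADH. nuo-2, which encodes the iron-sulfur protein 3 of its peripheral arm, ranked 438, 550 and 531 in replicates 2, 3 and 4 and 438 in the pooled list (signal 226.0). Its summit lay at −165 bp, in an exon of the gene T10E9.14 on the same strand. nuo-1, for the flavoprotein that binds NADH, lay near the end of the IDR list at pooled rank 1414 (signal 128.7) and ranked 1108, 1887 and 5798. Only replicate 2 had it among the 1468 highest regions. Its summit at −362 bp is nearer to the noncoding RNA gene C09H10.11 (−73 bp), and to rpl-36.A (−271 bp), a cytosolic ribosomal protein gene on the other strand, than to nuo-1. The other nuo- genes were far weaker, with nuo-6 at pooled rank 25292 and nuo-4 at 28501, and no pooled region at nuo-3 or nuo-5. Complex I genes with other names are given further below, among them ndua-2 at rank 137, above both bound nuo- genes.

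Complex II, succinate dehydrogenase, links the citrate cycle to the chain. Its flavoprotein gene sdha-1 had pooled rank 918 (signal 157.6) and ranked 3809, 720 and 934 in replicates 2, 3 and 4, so replicate 2 lacked it among the 1468 highest. The summit lay at −234 bp from sdha-1, in an exon of the noncoding RNA gene D2021.5 and at −51 bp from the snoRNA gene D2021.6. sdha-2, for the same flavoprotein, had no pooled region in its window and 1 region in replicate 2 (rank 9604). How reads that match both copies were placed is not stated. sdhb-1, for the iron-sulfur subunit, had pooled rank 15495.

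Complex III passes electrons to cytochrome c. ucr-2.2, one of several genes of the core protein family, ranked 1223, 1076 and 550 in replicates 2, 3 and 4 and 670 in the pooled list (signal 183.0, summit at −242 bp). Its relative ucr-2.1 fell just below the IDR list at pooled rank 1663 (signal 119.4) and ranked 2049, 5965 and 3616, while ucr-2.3 had no pooled region. cyc-1, for cytochrome c1, had pooled rank 1096 (signal 144.9) and ranked 2304, 1163 and 1197, with the summit at −291 bp. isp-1, for the Rieske iron-sulfur protein, had pooled rank 1974 and ranked 2514, 1864 and 9415. Neither ucr-2.2 nor cyc-1 had another 5′ end within 500 bp of its summit.

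Complex V is the ATP synthase, and the genes for both subunits of its catalytic head were bound. atp-1, for the alpha subunit, ranked 2195, 283 and 590 in replicates 2, 3 and 4 and 504 in the pooled list (signal 210.6). Its summit, 4 bp inside the gene, was the only one among the 14 that lay downstream of its member's 5′ end. atp-2, for the beta subunit, ranked 1323, 1221 and 4939 (pooled rank 1188, signal 139.6), with the summit at −215 bp in the second sequence above. Each call was thus missing from the 1468 highest regions of 1 replicate, replicate 2 for atp-1 and replicate 4 for atp-2. atp-3, for the oligomycin sensitivity conferring protein, followed at pooled rank 1828, and asb-2, for subunit b, at 1913. asb-2 ranked 1250 in replicate 3 and asg-2, for subunit g, 1360 there, but neither was among the IDR peaks. asb-1 and asg-1 had no pooled region.

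In the mitochondrial ribosome the 4 bound genes were mrpl-39 (pooled rank 1010, signal 150.9), mrps-35 (1107, 144.2), mrps-7 (1131, 142.6) and mrpl-45 (1440, 127.7). All stood in the lower part of the IDR list, below rank 734, whereas 5 of the 10 bound chain genes stood above it. mrpl-39, for large-subunit protein L39, ranked 836, 1068 and 9903 in replicates 2, 3 and 4, so replicate 4 lacked it among the 1468 highest. mrps-7, for small-subunit protein uS7m, ranked 2935, 1161 and 1416. mrps-35 ranked 1637, 4076 and 1000, and mrpl-45, for protein mL45, 1676, 1366 and 6291, each with only 1 replicate among the 1468 highest. No ribosome gene was reached in all 3 replicates, beside 1.80% of all protein-coding genes. With so small a share, 0 of 70 does not set the ribosome genes apart. Just outside the list stood mrps-17 (pooled rank 1520, with 923 in replicate 4), mrps-34 (1781) and mrpl-49 (2136), followed in the large subunit by mrpl-47 (3633). The divergent pair mrpl-1 and mrps-24 shared 1 region at pooled rank 4005. No pooled region lay at 32 of the 70, among them mrpl-10, mrpl-11, mrps-14 and mrps-15. The same held for 13726 of all 19973 protein-coding genes, a larger share.

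**Figure D3:**
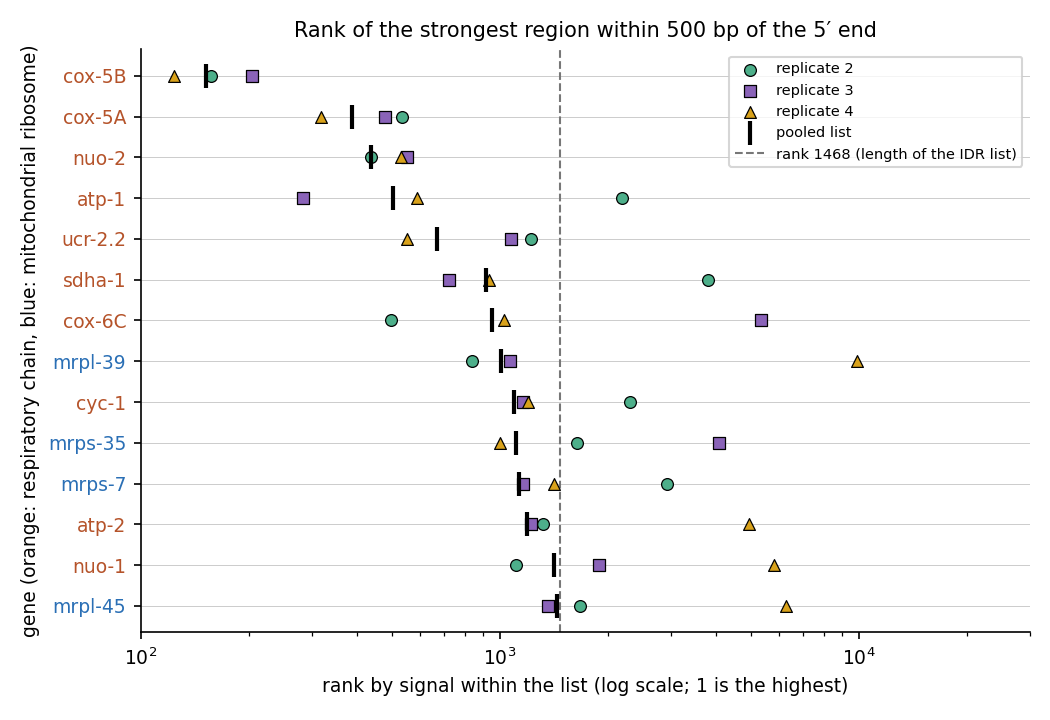
Rank by signal (horizontal axis, log scale, 1 is the highest) of the strongest region within 500 bp of the 5′ end in replicates 2, 3 and 4 and in the pooled list, for the 14 members with an IDR peak in order of pooled rank. cox-5B, cox-5A, nuo-2 and ucr-2.2 lie left of the dashed line at rank 1468 in every replicate; every other gene has at least 1 replicate to its right.

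cox-5B, cox-5A, nuo-2 and ucr-2.2 were the only members among the 1468 highest regions of all 3 replicates (3.64% of 110), beside 1.80% of all protein-coding genes, and all 4 are chain genes. Another 7 bound members were reached in 2 replicates and 3 in 1. Of the 17 members reached in at least 1 replicate, mrps-17, asb-2 and asg-2 had no IDR summit. The matching shares of all protein-coding genes for 1, 2 or at least 1 replicate were not computed. These counts thus do not compare the members with other genes. In these lists the strongest region in the window need not be the same region as the pooled peak, and its summit lay within 100 bp of the IDR summit in all 3 replicates for 11 of the 14. For cox-6C, mrps-35 and mrpl-45 it did so in 2 replicates.

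The summits lay upstream of the 5′ end at 13 of the 14 bound members, with a median offset of −224.5 bp, beside −199 bp and 87.6% upstream for the 748 bound protein-coding genes. The offsets ran from −428 to 4 bp. The replicates' summits at a given gene spanned 14 to 173 bp, with a median span of 54.5 bp. Of the summits, 8 lay between genes and 6 in annotated exons, 1 of them in the member's own exon. The annotated 5′ end need not be where transcription starts.

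**Figure D4:**
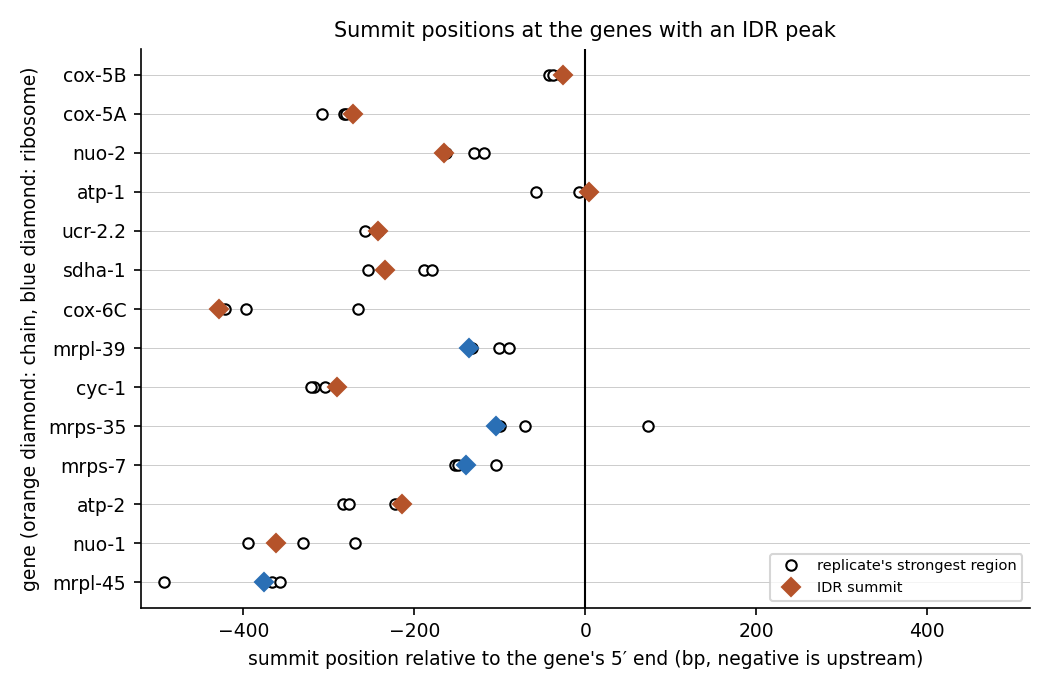
Summit position relative to the gene's 5′ end (horizontal axis, bp, negative is upstream) for the 14 members with an IDR peak; diamonds are the IDR summits and open circles the strongest region of each replicate. Of the 14 diamonds 13 lie left of 0, and only mrps-35 has a replicate's summit well inside the gene.

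Several of these peaks lie closer to another gene. The member's own 5′ end was the nearest of all annotated genes for 9 of the 14 summits and the nearest coding 5′ end for 10. Of all 748 bound coding genes, 461 had a summit nearest to them of all genes and 591 of coding genes. The members' shares are close to these. No other 5′ end lay within 500 bp for cox-5B, cox-5A, nuo-2, ucr-2.2 and cyc-1, while 8 summits had another coding 5′ end there. The mrpl-39 summit lay at −120 bp from gly-7 and −136 bp from mrpl-39, a divergent pair on either side of it. The mrpl-45 summit was nearer to Y119D3B.12 (−162 bp) than to mrpl-45 (−376 bp), and that of cox-6C was nearer to grld-1 (−372 bp). The mrps-35 summit lay 277 bp inside sws-1 on the other strand. The atp-1 summit lay at −194 bp from mcrs-1, and that of mrps-7 at −331 bp from Y57G11C.3. With each summit given to its nearest gene only, 9 members remained bound, of which 7 were chain genes (17.5% of 40) and 2 ribosome genes (2.86% of 70), beside 2.31% of all protein-coding genes assigned in this way.

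The arrangement of the genes differed from that of the genome at large. Of the members, 44 (40%) lay downstream of another coding gene on the same strand with a gap under 500 bp, the layout of worm operons, beside 20.1% of all protein-coding genes. A divergent coding neighbour within 1000 bp upstream was present for 46 members (41.8%), beside 17.7% of all. Among all coding genes, 9.89% of those with such a neighbour had an IDR summit, beside 2.42% of those without. Of the ribosome genes, 3 of 26 with a divergent neighbour (11.5%, interval 2.45 to 30.2) and 1 of 44 without (2.27%, 0.0575 to 12) were bound. Of the chain genes, 4 of 20 with one (20%, 5.73 to 43.7) and 6 of 20 without (30%, 11.9 to 54.3) were bound. The 3.75% over all coding genes is thus lower than the share among genes with a divergent neighbour. An IDR summit stood at the 5′ end of 4 of 15 such downstream chain genes (nuo-2, ucr-2.2, sdha-1 and cyc-1), of 0 of 29 downstream ribosome genes (interval up to 11.9%) and of 2.22% of all downstream coding genes. Of the members that were first or alone, 6 of 25 chain genes (24.0%) and 4 of 41 ribosome genes (9.76%) were bound, beside 4.13% of all such coding genes.

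For 11 of the 44 downstream members (25%) the IDR summit stood instead at the first gene of the run, beside 7.81% of all 4006 downstream coding genes. Of these 11, 5 are chain genes and 6 ribosome genes, and none had an IDR summit of its own. The highest were ucr-11 behind dad-1 (pooled rank 97, signal 469.5), cox-11 behind lin-54 (292), cox-18 behind Y55F3AR.2 (308) and mrps-21 behind F29B9.11 (322). mrps-30 lay behind eif-3.E (583), and mrps-26 lay behind atp-2, itself a member. When every gene was scored at the 5′ end of the first gene of its run in place of its own, 11 chain genes (27.5%) and 10 ribosome genes (14.3%) were reached, beside 4.87% of all protein-coding genes. Scored in this way the ribosome genes kept their 4 and gained 6. The chain genes kept 6 of their 10, gained 5 and lost nuo-2, ucr-2.2, sdha-1 and cyc-1. The runs were defined from gene spacing alone and were not compared with mapped operons.

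The base composition under the members' summits was close to that under other coding summits, while the letter strings varied. In windows of 101 bp the median share of A and T was 50% for the 14 members (40.6 to 59.4). For the 589 IDR summits at all protein-coding genes it was 49.5%. It was 59.4% in 298 windows at the lowest-signal pooled regions of coding genes. At the same distance from all 19973 coding 5′ ends it was 66.3%. Neither TATAAA nor TATATA, letter strings of the TATA box, occurred on either strand in any of the 14 windows. They occurred in 3.57% and 1.02% of the 589 and in 13.3% and 4.11% of the windows at all coding genes. In the 298 low-signal windows they occurred in 8.72% and 2.35%. GGGCGG, the core of the GC box, occurred at atp-1, atp-2 and mrpl-39 (21.4%), beside 11% of the 589 and 2.2% of all. GAGAGA occurred at cox-5A and sdha-1 (14.3%), beside 20.4% and 6.92%. A run of TTTTTTTT occurred at mrps-35 and mrpl-45 (14.3%), beside 1.70% and 12.9%. CACGTG and CCGGAA occurred at none, beside 2.55% and 2.21% of the 589 and 1.58% and 3.32% of all. Both strands were searched, and no window held more than 1 of the strings. With 14 windows these are descriptions, and the absence of a string says nothing about a factor.

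Other mitochondrial genes were drawn from a list that the naming rule leaves out, of which 79 of 85 names matched a coding gene. This list was likewise chosen with earlier results of these data known. An IDR summit lay at 14 of the 79 (17.7%, interval 10 to 27.9), beside 3.75% of all. The citrate cycle and pyruvate dehydrogenase genes held 7 of 18 (38.9%, 17.3 to 64.3). The strongest of these was idhg-1, for a subunit of isocitrate dehydrogenase, at rank 55 with a signal of 566.6 and its summit at −51 bp, above every member. dlst-1 (rank 606), suca-1 (663), sucl-1 (859), pdhb-1 (939), aco-2 (1133) and dlat-1 (1288) followed. The aco-2 summit lay 27 bp from the 5′ end of eef-1B.1 and that of pdhb-1 14 bp from dyf-3, and those of dlst-1 and suca-1 were nearest a noncoding RNA gene. Chain subunits and assembly genes named otherwise had 3 of 26 (11.5%, 2.45 to 30.2), namely ndua-2 of complex I (rank 137, signal 395.3, nearest dnj-29), sco-1 (604) and mev-1 of complex II (1397). Carriers and ubiquinone genes had 2 of 14 (14.3%, 1.78 to 42.8), the ATP carrier gene ant-1.1 (636) and the cytochrome c gene cyc-2.1 (986). Import and quality control genes had 2 of 13 (15.4%, 1.92 to 45.4), tomm-20 (903) and the chaperone gene hsp-6 (1311), whose summit was nearest the noncoding RNA gene C37H5.16 at 91 bp. None of 8 genes of mitochondrial transcription, DNA upkeep and translation was bound (interval up to 36.9%). The intervals of these 4 lists all include the 3.75% of all coding genes.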

How the data were processed

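The authors deposited region lists on ce11, 1 per replicate from its alignment and 2 control files, 1 from pooled alignments and 1 IDR-thresholded list, per the README files deposited with the samples. The peak caller and IDR threshold: not given in the sources used here. The signal value per region was used as deposited, for ranking within a list. The −log10 q-value was deposited by the authors and not used for filtering. Gene models were Ensembl release 115 (WBcel235) and sequences and products RefSeq of the same assembly. All regions lay within its chromosome lengths. Members and lists were chosen with earlier results of these data known. Summits within 500 bp of a gene 5′ end were matched with Python 3.11.15, numpy 2.4.6, pandas 2.3.3 and scipy 1.17.1, and the matching was tested on simulated data. Several 5′ ends may share a summit. Replicate lists were cut at 1468 regions, the length of the IDR list. Shares have exact Clopper-Pearson 95% intervals. The text names every bound member, per group the 2 highest unbound members and up to 2 with no pooled region. The genes cox-4, cox-6A, asg-2, ucr-2.3, the pair mrpl-1 and mrps-24 and members in same-strand runs were named after their values were seen. Alternatives changed the window, the 5′ ends, the assignment, the list length and the replicates.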

Additional observations from a re-analysis of the deposited data

How the results depend on the processing

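With a window of 250 bp, 9 members had an IDR summit (6 chain genes), the median offset was −140 bp, a mean of 6 members was reached per replicate and 2 in every replicate. With 1000 bp, 7 ribosome genes were bound, the median offset was −257 bp and 7 members were reached in every replicate. With each summit given to its nearest gene of any kind, 9 members and 2 ribosome genes were bound, with a median offset of −165 bp, and with the nearest coding gene 2 ribosome genes were. With all transcript 5′ ends the median offset was −215 bp. At the first gene of each same-strand run, 10 ribosome genes were bound, a mean of 17.3 members was reached per replicate and 7 in every replicate. The top 734 IDR peaks by signal held 5 members, 5 chain genes and 0 ribosome genes. The 2936 highest pooled regions reached 22 members and 8 ribosome genes, and that many per replicate a mean of 18 members and 7 in every replicate. With 734 regions per replicate the mean was 4.67. The filter described above, which keeps only IDR summits near the highest regions of both other replicates, was applied without each replicate in turn. It gave 4 to 8 bound members, 4 to 7 chain genes, 0 to 1 ribosome genes and a median offset of −203.5 to −190 bp. The share of all coding genes fell too, from 3.75% to between 2.05% and 2.16%. The main setting has no such filter, so these counts do not separate the filter's effect from that of the omitted replicate. Among the replicate lists, omitting 1 gave a mean of 9.5 to 12 members per replicate and 5 to 8 in every remaining replicate. The count in every remaining replicate can only equal or exceed the 4 in all 3 replicates, by construction. The reads of a replicate left out remain in the pooled calls. A narrower window, a shorter list or the added filter can only lower a count, by construction. The shares of all coding genes with an IDR summit moved too, to 2.12% at 250 bp, 5.17% at 1000 bp, 2.31% and 2.96% by nearest gene of any kind and nearest coding gene, 4.06% with all transcripts, 4.87% at the first gene of the run, 1.92% in the top 734 peaks and 6.37% in the top 2936 pooled regions. In every replicate, all coding genes were reached in 0.926% at 250 bp, 2.56% at 1000 bp, 2.32% at the first gene of the run and 2.71% with 2936 regions. Within single replicates their shares were 1.89% to 1.99% at 250 bp and 4.28% to 4.42% at the first gene of the run. They were 5.66% to 5.85% with 2936 regions and 1.74% to 1.88% with 734. For the 5 to 8 members in every remaining replicate, the share of all coding genes was not computed. In the IDR list the chain share was above the ribosome share under each of these alternatives, including the filter without each replicate. It was also above the ribosome share in each replicate under each window, 5′ end, assignment and list length. No paired analysis was possible because the 3 replicates form 1 group, apart from the pairing of gene groups within a replicate given above. Depth could not be assessed, since the lists hold no read counts.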

Other observations

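Bound members lay on every nuclear chromosome. They numbered 4 of 27 members on I, 1 of 16 on II, 3 of 32 on III, 2 of 16 on IV, 2 of 14 on V and 2 of 5 on X. The shares of all protein-coding genes with an IDR summit were 5.0% on I, 3.16% on II, 4.73% on III, 3.57% on IV, 2.90% on V and 3.95% on X. These counts per chromosome are small and were not tested. Most members' peaks had the same width, 424 bp in 11 of the 14, which is also the median width of all IDR peaks. The peaks of cox-5B, cox-5A and atp-1 were narrower, down to 120 bp at atp-1.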
